A study of Mus musculus with 9 samples.

Results

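The 6 conventional actin genes of the mouse (Acta1, Acta2, Actb, Actc1, Actg1 and Actg2) were followed by RNAseq through adipogenic differentiation of primary stromal vascular fraction (SVF) cells in the presence or absence of mizoribine (MIZ). They were taken by name from the 32285 genes of the count tables, and each symbol belonged to 1 Ensembl identifier. Of the 6, 5 passed the filter on low counts, which asked for 5 or more counts in 3 or more libraries, and were tested among 17173 genes, while Actc1 did not pass.

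SVF cells are the stromal and vascular cells left when adipocytes are removed from digested fat. Here they came from subcutaneous white adipose tissue of neonatal wild-type (WT) mice. The 3 groups of 3 libraries each were cells differentiated for 6 days with MIZ, which blocks the inosine monophosphate dehydrogenases of guanine nucleotide synthesis, cells differentiated for 6 days with vehicle, and undifferentiated cells. All groups thus share the WT genotype and the tissue of origin, and the first 2 groups also share the adipogenic cocktail. The labels call every sample primary adipocytes, but the summed level of 8 adipocyte markers was 989 to 1265 CPM (counts out of 1000000 in a library) in MIZ, 14180 to 14980 CPM in vehicle and only 21.4 to 23.6 CPM in undifferentiated libraries. Cidec was at 0 in the undifferentiated libraries only. Lep was at 0 in both MIZ and undifferentiated libraries and averaged just 0.0511 CPM in vehicle, too low to be tested. The comparisons ask how the actins differed when purine synthesis was blocked during differentiation, and how each differentiated group differed from undifferentiated cells. No day is given for the undifferentiated cells. Differentiation, the cocktail and any difference in time in culture therefore cannot be told apart in comparisons with them.

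Actin monomers assemble into the filaments that give a cell its shape, its stress fibres and its motor tracks. Mammals carry 6 conventional actins. Actb (β-actin) and Actg1 (γ-actin) are the cytoplasmic actins that every cell uses. Acta2 (α-smooth muscle actin) and Actg2 (γ-smooth muscle actin) are the actins of vascular and visceral smooth muscle, and Acta2 is also the usual marker of myofibroblasts. Acta1 (α-skeletal actin) and Actc1 (α-cardiac actin) are those of striated muscle. Actin monomers hold the cofactor MRTF in the cytoplasm, and when monomers are drawn into filaments MRTF joins serum response factor (SRF) on CArG boxes, DNA elements near actin and other cytoskeletal genes. In adipogenesis, loss of actin stress fibres accompanies the rounding of fibroblast-shaped precursors into adipocytes.

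The start of the coding sequence is shown for all 6 because the muscle and cytoplasmic genes differ there in length as well as in bases. The sequences are the first coding bases of the principal GENCODE M21 transcript, 5′ to 3′ from the start codon, on the minus strand of GRCm38 (mm10), with the bases in capitals wherever the 6 genes are not all alike in the alignment.
Acta2: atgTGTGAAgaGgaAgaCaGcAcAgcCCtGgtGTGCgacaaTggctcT
Actg2: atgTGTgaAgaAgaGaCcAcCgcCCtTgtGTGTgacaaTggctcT
Acta1: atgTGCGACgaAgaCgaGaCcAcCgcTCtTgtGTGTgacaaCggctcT
Actc1: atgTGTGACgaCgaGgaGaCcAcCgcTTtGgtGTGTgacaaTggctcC
Actb: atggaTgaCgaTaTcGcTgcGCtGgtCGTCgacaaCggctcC
Actg1: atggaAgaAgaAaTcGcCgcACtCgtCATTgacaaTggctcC
The 3 α-actins begin with 48 bases where Actb and Actg1 have 42, and Actg2 has 45, since the muscle genes carry extra codons after the start codon. These stretches lie in coding exons at chr8:123893650-123893697 (Acta1), chr19:34252506-34252553 (Acta2), chr5:142905645-142905686 (Actb), chr2:114051984-114052031 (Actc1), chr11:120348050-120348091 (Actg1) and chr6:83527397-83527441 (Actg2). Over the whole coding sequence, of 1128 to 1134 bases, Actb and Actg1 were the most alike pair with 88.65% of bases identical, and the least alike pairs shared 81.91%.

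The read length reported for these libraries, 150 bases, was long enough to separate the members where a read kept its full length. No window of 150 bases of any member's transcript occurred in another member, and the longest identical run between 2 coding sequences was 77 bases (Acta1 and Actb). A different limit applied to Actg1: 785 of its 1803 windows of 150 bases, or 43.5%, also occurred in the processed pseudogenes Gm12715, Gm8399 or Gm16385, none of which had a row in the count tables, whereas the other 5 members had no such window. Reads from those stretches can map to more than 1 place. The study's methods name the GeneCounts mode of STAR, which counts only reads that map to a single place, but the labels credit HTSeq, so how these reads were treated is not settled. The level of Actg1 may therefore be understated beside those of the other isoforms, which was not tested. No exon of a member shared bases with an exon of another gene in the tables. Reads were trimmed, so windows of 50 bases were also searched. At that length at most 2.57% of the windows of a member occurred in another member. Outside the family, 56.7% of Actg1 windows and 14.2% of Actb windows occurred in other genes, for Actb among them Lrrc58, and at most 2.22% of those of any other member.

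Promoters of 4 of the 6 genes were matched in RefSeq (GRCm38.p6), none for Actb or Actg2. They are shown because CArG boxes, the SRF element named above, can be read in them. Each is the 250 bases before the RefSeq start, 5′ to 3′ on the minus strand, at chr8:123894776-123895025 (Acta1), chr19:34255374-34255623 (Acta2), chr2:114052876-114053125 (Actc1) and chr11:120348496-120348745 (Actg1), with CArG boxes in capitals.
Acta2: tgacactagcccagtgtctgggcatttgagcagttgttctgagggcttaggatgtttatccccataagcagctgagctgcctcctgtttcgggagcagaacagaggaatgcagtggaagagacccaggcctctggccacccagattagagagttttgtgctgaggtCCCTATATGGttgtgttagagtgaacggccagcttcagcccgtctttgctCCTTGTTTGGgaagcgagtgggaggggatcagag
Acta1: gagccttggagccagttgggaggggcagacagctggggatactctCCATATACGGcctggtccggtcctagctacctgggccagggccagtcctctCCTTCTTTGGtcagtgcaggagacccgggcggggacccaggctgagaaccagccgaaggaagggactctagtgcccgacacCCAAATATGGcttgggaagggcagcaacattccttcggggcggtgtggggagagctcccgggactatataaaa
Actc1: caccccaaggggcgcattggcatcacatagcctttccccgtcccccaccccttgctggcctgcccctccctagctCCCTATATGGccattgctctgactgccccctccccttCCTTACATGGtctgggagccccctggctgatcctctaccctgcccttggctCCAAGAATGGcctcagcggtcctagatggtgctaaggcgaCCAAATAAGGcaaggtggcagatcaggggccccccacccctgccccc
Actg1: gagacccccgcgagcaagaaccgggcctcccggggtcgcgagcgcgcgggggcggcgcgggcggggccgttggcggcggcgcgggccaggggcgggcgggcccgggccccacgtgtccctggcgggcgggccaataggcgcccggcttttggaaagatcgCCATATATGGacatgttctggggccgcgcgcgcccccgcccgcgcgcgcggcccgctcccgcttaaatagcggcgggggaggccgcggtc
The search took CC, then 6 bases of A or T, then GG, and allowed 1 G or C among the 6. The pattern reads the same on both strands, so 1 pass covers both, and no other motif was searched. Acta1 had an exact box, CCAAATATGG, at 73 to 64 bases before the start. It also had CCATATACGG at 205 to 196 and CCTTCTTTGG at 154 to 145 bases before the start, each with 1 mismatch. Actg1 had an exact box, CCATATATGG, at 90 to 81 bases before the start. Acta2 had no exact box and 2 with 1 mismatch, CCCTATATGG at 84 to 75 bases and CCTTGTTTGG at 34 to 25 bases before the start. Actc1 had 4 matches, of which CCAAATAAGG, at 47 to 38 bases before the start, was exact. Of all 32851 promoters of the same length, 1.47% held an exact box, 8.59% held at least 1 box with the mismatch allowed and 0.67% held 2 or more. The match is a description of these letters, and the part of the boxes in the levels of the actins was not tested.

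The libraries held 28760721 to 55288455 counts in genes, and normalization factors lay between 0.927 and 1.06. Mitochondrially encoded genes took 0.686% to 0.836% of counts in MIZ, 3.82% to 5.0% in vehicle and 0.837% to 0.891% in undifferentiated libraries. Vehicle replicate 1, the shallowest library, stood furthest from its group (a chi-square per degree of freedom of 28.3 and 45.2 against the other vehicle libraries, which differed by 8.58 from each other), so the values that moved most without it are also given without it. No label ties a library to an animal. Levels are CPM from library sizes normalized by the TMM method, and fold changes, standard errors (SE) and adjusted p-values come from edgeR's quasi-likelihood test with Benjamini-Hochberg adjustment over all 17173 genes. In these bulk samples a shift in the cells that make up a culture and a shift in RNA per cell cannot be told apart.

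All 5 tested actins were higher in MIZ than in vehicle cells, by 2.23-fold to 119-fold. Among all genes tested, 35.9% were called higher and 35.1% lower in this comparison, so a call alone says little here and the sizes say more: Actg2, Acta2 and Acta1 ranked 21, 23 and 117 from the top of 17173 fold changes, and Actb and Actg1 ranked 2296 and 2640. The 5 genes were also all higher in MIZ than in undifferentiated cells, where 33.7% of genes were called higher and 33.3% lower, and all lower in vehicle than in undifferentiated cells, where 36.2% were called higher and 41.5% lower. Each pair of these comparisons shares a group of libraries, so they are not independent of each other. The 3 libraries of each group lay apart from those of both other groups for each of the 5 genes, as the plot of normalised CPM by library shows. How many of all 17173 genes also lay apart in this way was not counted, so the separation is a description only.

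**Figure D1:**
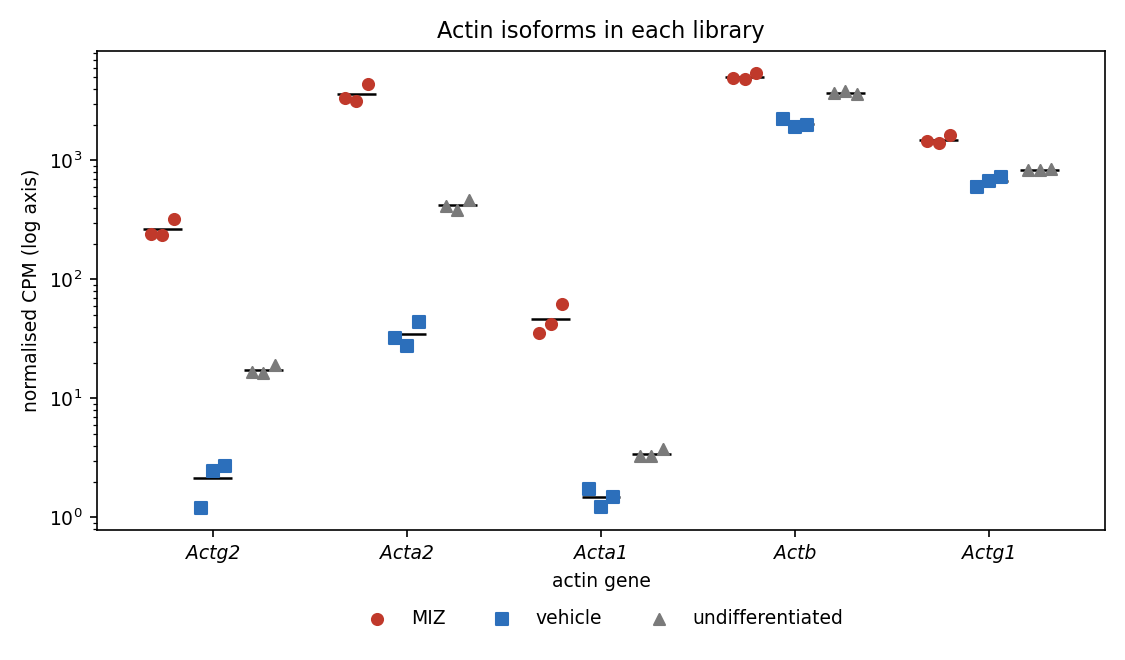
Level of the 5 tested actin genes in each library, in normalised CPM on a log axis, with MIZ (circles), vehicle (squares) and undifferentiated (triangles) libraries side by side. Points are libraries, moved sideways to be seen, and the line is the mean of 3. Each gene is highest in MIZ and lowest in vehicle libraries with no overlap, and the gap between MIZ and vehicle is widest for Actg2 and Acta2 and narrowest for Actg1.

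Among the smooth muscle actins, Acta2, the α-smooth muscle isoform, had 3334, 3154 and 4379 CPM in the MIZ libraries, 32.2, 27.8 and 43.8 CPM in the vehicle libraries and 415, 387 and 464 CPM in the undifferentiated libraries. The lowest MIZ library was above every other library, and all vehicle libraries were below all undifferentiated ones. Acta2 averaged 3623 ± 661 CPM in MIZ, 34.6 ± 8.26 CPM in vehicle and 422 ± 39.3 CPM in undifferentiated cells (SD, n = 3 each), and it was 105-fold higher in MIZ than in vehicle (log2 fold change 6.71, SE 0.207, edgeR adjusted p = 3.04e-10). It was 8.58-fold higher in MIZ than in undifferentiated cells (log2 fold change 3.10, SE 0.173, edgeR adjusted p = 6.51e-08), and it fell by 3.61 on the log2 scale in vehicle relative to undifferentiated cells (SE 0.181, edgeR adjusted p = 9.28e-09).

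Actg2, the γ-smooth muscle isoform of visceral muscle, had the same order of groups as Acta2. It had 242, 237 and 322 CPM in the MIZ libraries, 1.2, 2.47 and 2.71 CPM in the vehicle libraries and 16.5, 16.5 and 19.3 CPM in the undifferentiated libraries. Replicate 3 was the highest MIZ library for both smooth muscle actins, and in vehicle replicate 1 the value of Actg2 rested on 32 counts. The gene was 119-fold higher in MIZ than in vehicle (log2 fold change 6.90, SE 0.209, edgeR adjusted p = 2.7e-10) and 15.3-fold higher in MIZ than in undifferentiated cells (log2 fold change 3.94, SE 0.167, edgeR adjusted p = 9.1e-09). In vehicle relative to undifferentiated cells it fell by 2.96 on the log2 scale (SE 0.208, edgeR adjusted p = 1.63e-07).

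Among the striated muscle actins, Acta1, the skeletal isoform, had 35.6, 42.6 and 61.8 CPM in the MIZ libraries, 1.73, 1.22 and 1.49 CPM in the vehicle libraries and 3.27, 3.28 and 3.77 CPM in the undifferentiated libraries. The groups again did not overlap, and the MIZ libraries were the most spread. Acta1 was 32.1-fold higher in MIZ than in vehicle (log2 fold change 5.0, SE 0.227, edgeR adjusted p = 6.04e-09), 13.5-fold higher in MIZ than in undifferentiated cells (log2 fold change 3.75, SE 0.197, edgeR adjusted p = 4.1e-08) and lower in vehicle than in undifferentiated cells (log2 fold change -1.25, SE 0.255, edgeR adjusted p = 0.000935). Its vehicle values rest on 46 to 67 counts a library.

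Actc1, the cardiac isoform, had 0, 2 and 1 counts in the MIZ libraries and 0 counts in all vehicle and undifferentiated libraries. A count of 0 allows up to 3 counts, which comes to 0.0644 to 0.113 CPM in the vehicle and 0.0512 to 0.0682 CPM in the undifferentiated libraries. Levels in all 3 groups were at or under that floor, so no fold change is given, and a difference was not detectable at this depth. The other striated actin, Acta1, was thus counted 1568 to 2090 times in the MIZ libraries while Actc1 was counted at most 2 times.

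The cytoplasmic actins changed by much less than the muscle isoforms. Actb had 4923, 4802 and 5473 CPM in the MIZ libraries, 2225, 1913 and 1972 CPM in the vehicle libraries and 3656, 3860 and 3634 CPM in the undifferentiated libraries. It was 2.49-fold higher in MIZ than in vehicle (log2 fold change 1.31, SE 0.0767, edgeR adjusted p = 4.79e-08), 1.36-fold higher in MIZ than in undifferentiated cells (log2 fold change 0.45, SE 0.0756, edgeR adjusted p = 0.000334) and fell by 0.87 on the log2 scale in vehicle relative to undifferentiated cells (SE 0.076, edgeR adjusted p = 1.07e-06). Its product is a common loading reference in quantitative PCR and immunoblots.

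Actg1 had 1455, 1397 and 1622 CPM in the MIZ libraries, 598, 677 and 730 CPM in the vehicle libraries and 828, 828 and 843 CPM in the undifferentiated libraries. Vehicle replicate 1 was the lowest of all libraries for Actg1 and the highest of the vehicle libraries for Actb. Actg1 was 2.23-fold higher in MIZ than in vehicle (log2 fold change 1.16, SE 0.0784, edgeR adjusted p = 1.69e-07) and 1.79-fold higher in MIZ than in undifferentiated cells (log2 fold change 0.84, SE 0.0779, edgeR adjusted p = 3.2e-06). Between vehicle and undifferentiated cells its difference was the smallest of the 15 (log2 fold change -0.32, SE 0.0775, edgeR adjusted p = 0.00312), beside a median of -0.08 over all genes tested, and without vehicle replicate 1 it was -0.24.

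**Figure D2:**
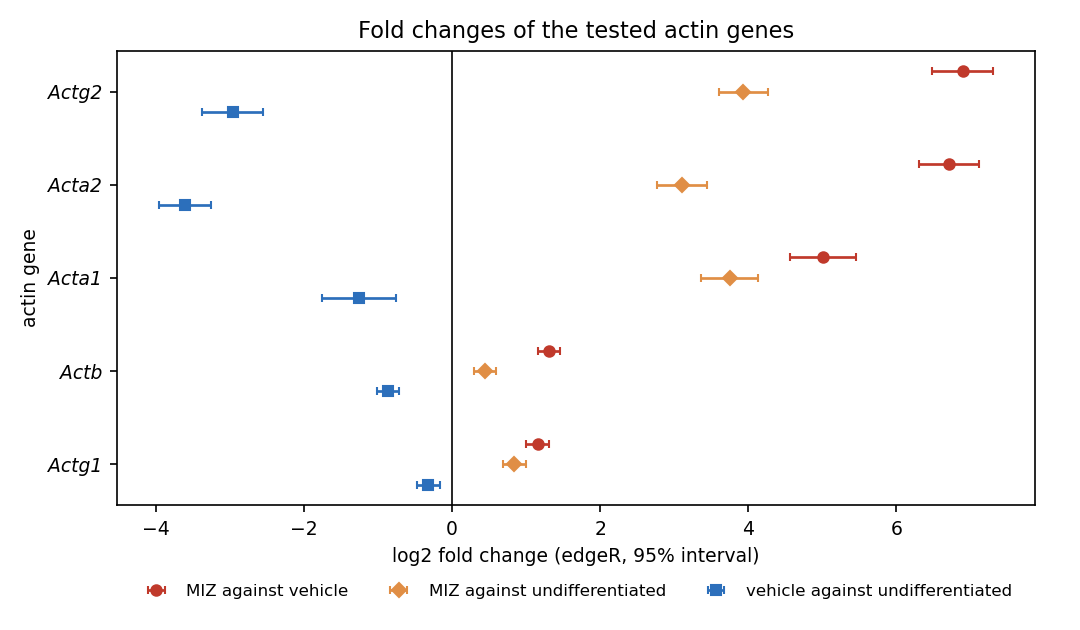
Log2 fold changes of the 5 tested actin genes in the 3 comparisons (circles, MIZ against vehicle; diamonds, MIZ against undifferentiated; squares, vehicle against undifferentiated), with 95% intervals from the edgeR fit. Muscle isoforms reach 5.0 to 6.90 between MIZ and vehicle where Actb and Actg1 reach 1.31 and 1.16, and no interval reaches 0.

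The order of the isoforms within a group was read per kilobase (kb) of transcript, because their transcripts differ in length (1333 bases for Actg2 to 2035 bases for Acta2). In MIZ cells the order was Actb (2639 ± 186 CPM per kb, SD, n = 3), Acta2 (1780 ± 325), Actg1 (764 ± 59.9), Actg2 (200.4 ± 35.9) and Acta1 (32.3 ± 9.38), with no overlap between neighbours. In vehicle cells Actb (1061 ± 86.2 CPM per kb) and Actg1 (342 ± 34.0) came first and second, far above Acta2 (17.0 ± 4.06), while Actg2 (0.9003 to 2.04) and Acta1 (0.846 to 1.19) overlapped and could not be ordered. In undifferentiated cells the order was Actb (1936 ± 64.9 CPM per kb), Actg1 (427 ± 4.46), Acta2 (207 ± 19.3), Actg2 (13.1 ± 1.2) and Acta1 (2.38 ± 0.198). Acta2 thus stood above Actg1 in MIZ cells and below it in the other groups, by values that for Actg1 may miss reads shared with its pseudogenes.

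The 6 genes together held 9990, 9633 and 11858 CPM in the MIZ libraries, 2858, 2621 and 2751 CPM in the vehicle libraries and 4918, 5094 and 4964 CPM in the undifferentiated libraries. The sum was 3.81-fold higher in MIZ than in vehicle (1.93 on the log2 scale) and 2.09-fold higher in MIZ than in undifferentiated cells (1.07 on the log2 scale), and in vehicle it was 0.549 of the undifferentiated level (-0.86 on the log2 scale). The groups did not overlap, and each exact two-sided permutation test gave p = 0.1, the smallest value that 3 libraries against 3 allow. As raw shares, actins took 1.0% to 1.2% of all counts in MIZ, 0.243% to 0.265% in vehicle and 0.513% to 0.536% in undifferentiated libraries. Of the 7750 CPM by which the sum in MIZ exceeded that in vehicle, Acta2 made up 46.3%, Actb 39.1%, Actg1 10.6%, Actg2 3.42% and Acta1 0.583%. In vehicle the sum fell by 2249 CPM relative to undifferentiated cells, of which Actb made up 74.7% and Acta2 17.2%.

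The makeup of the actin pool differed between groups. Acta1, Acta2, Actc1 and Actg2 together, the muscle actins, made up 37.3 ± 2.47% of summed actin CPM in MIZ, 1.39 ± 0.306% in vehicle and 8.88 ± 0.921% in undifferentiated cells (SD, n = 3 each). The muscle share was 35.9 percentage points higher in MIZ than in vehicle, 28.4 points higher in MIZ than in undifferentiated cells and lower in vehicle than in undifferentiated cells (a difference of -7.49 points), each without overlap and with p = 0.1 in the exact two-sided permutation test. Acta2 alone held 33.4%, 32.7% and 36.9% of actin CPM in the MIZ libraries, 1.13%, 1.06% and 1.59% in the vehicle libraries and 8.44%, 7.59% and 9.36% in the undifferentiated libraries. Actg2 held 2.53 ± 0.160% in MIZ, 0.0783 ± 0.0315% in vehicle and 0.349 ± 0.0342% in undifferentiated cells (SD, n = 3 each), and Acta1 held 0.440 ± 0.0824% in MIZ, 0.0537 ± 0.00686% in vehicle and 0.0690 ± 0.00616% in undifferentiated cells. Actc1 held at most 0.000564% in a MIZ library, and 0 of 76211 actin counts in vehicle replicate 1 still allows up to 0.00484% (upper bound of the exact 95% Clopper-Pearson interval). Such intervals cover counting error only and were at most 0.591 percentage points wide for any share. Every gap between groups was wider than that for Acta2 and Actg1, as were the gaps of Actb between MIZ and the other groups. The gap of Actb between vehicle and undifferentiated cells, -0.257 points, was smaller than that width.

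**Figure D3:**
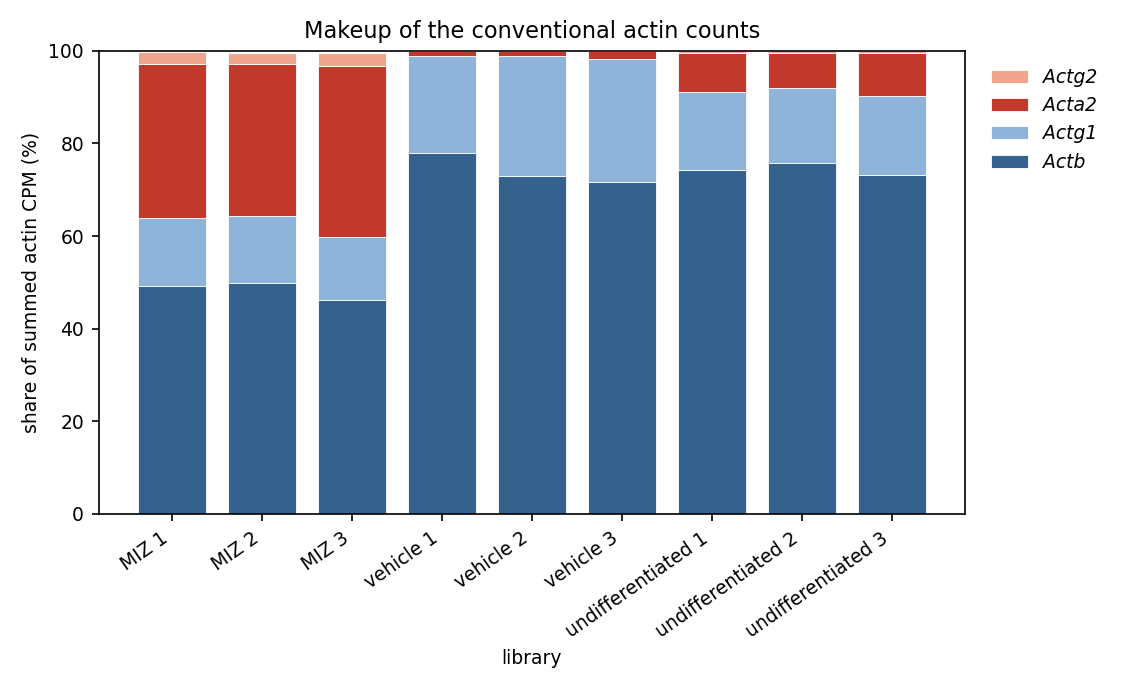
Share of summed actin CPM held by Actb, Actg1, Acta2 and Actg2 (stacked from the bottom) in each library, in percent, with MIZ libraries on the left, then vehicle, then undifferentiated. Acta1 and Actc1, at most 0.521% and 0.000564% of a library's actin CPM, are too thin to draw. With them, the muscle actins hold 35.7% to 40.2% in MIZ, 1.2% to 1.75% in vehicle and 7.98% to 9.82% in undifferentiated libraries.

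Both cytoplasmic isoforms held a smaller share in MIZ cells than in either other group. Actb held 48.4 ± 1.99% of actin CPM in MIZ, 74.2 ± 3.24% in vehicle and 74.4 ± 1.29% in undifferentiated cells, and Actg1 held 14.3 ± 0.493% in MIZ, 24.4 ± 3.06% in vehicle and 16.7 ± 0.383% in undifferentiated cells (SD, n = 3 each). The share of Actb was lower in MIZ than in vehicle (a difference of -25.7 points), and between vehicle and undifferentiated cells its libraries overlapped (a difference of -0.257 points, exact two-sided permutation p = 0.9, and -2.09 without vehicle replicate 1). The share of Actg1 was 7.74 points higher in vehicle than in undifferentiated cells without overlap, although its level was lower there. Of the 18 tests of a gene's share in a comparison, 14 had no overlap and an exact permutation p of 0.1, and an adjusted p of 0.129 over the 18, so none could pass 0.05.

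Ratios within a library show whether a pair of isoforms moved by different amounts, free of normalization between libraries. Raw counts are not per length, so only the differences of a ratio between groups are read. Actb outnumbered Actg1 in raw counts by 3.38, 3.44 and 3.37 times in the MIZ libraries, 3.72, 2.83 and 2.7 times in the vehicle libraries and 4.42, 4.66 and 4.31 times in the undifferentiated libraries. The log2 ratio of Actg1 to Actb was thus higher than in undifferentiated cells both in MIZ (by 0.39) and in vehicle cells (by 0.55), without overlap, while MIZ and vehicle libraries overlapped (a difference of -0.16, exact permutation p = 0.4). That overlap came from vehicle replicate 1 alone, and without it the difference was -0.30 and the libraries lay apart. The agreement among MIZ libraries was close, with an SD of 0.0145 on the log2 scale against 0.25 in vehicle, where replicate 1 stood apart.

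Acta1 and Acta2 did not move alike. Acta2 outnumbered Acta1 by 93.7, 74.1 and 70.9 times in raw counts in the MIZ libraries, 18.7, 22.7 and 29.4 times in the vehicle libraries and 127, 118 and 123 times in the undifferentiated libraries. The log2 ratio of Acta1 to Acta2 was 2.40 higher in vehicle than in undifferentiated cells, lower in MIZ than in vehicle (a difference of -1.77) and 0.63 higher in MIZ than in undifferentiated cells, with no overlap in any of the 3. Acta1 thus differed less than Acta2 between vehicle and undifferentiated cells. For Actg2 and Acta2 the ratio was 0.84 higher on the log2 scale in MIZ than in undifferentiated cells without overlap, while the vehicle libraries (SD 0.63) overlapped both other groups. The difference in that ratio between MIZ and vehicle was 0.32 (exact permutation p = 0.6), and -0.01 without vehicle replicate 1. Between vehicle and undifferentiated cells it was 0.51, and 0.84 without vehicle replicate 1, the only vehicle library that was not above all undifferentiated ones. All 9 of these ratio tests were exact and two-sided, 6 of them reached the smallest p of 0.1, and their adjusted p was 0.15.

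**Figure D4:**
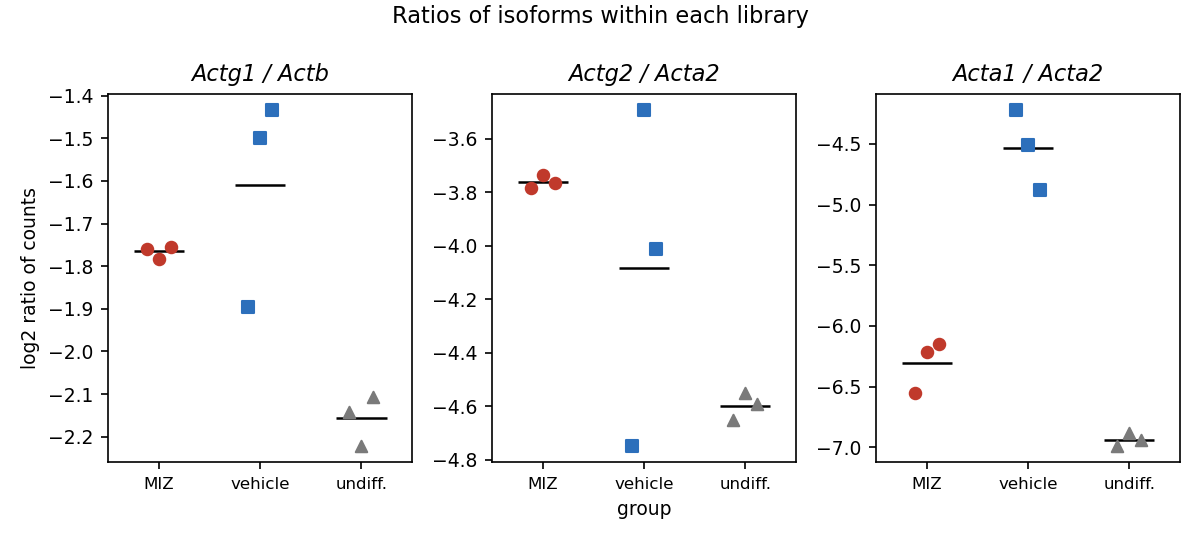
Log2 ratios of raw counts between pairs of isoforms within each library, for Actg1 to Actb (left), Actg2 to Acta2 (middle) and Acta1 to Acta2 (right), each panel with its own axis. Points are libraries and lines are means of 3. Undifferentiated libraries are lowest in mean and vehicle libraries are the most spread in each panel, and Acta1 to Acta2 is highest in vehicle.

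Across the 9 libraries, which fall into 3 separate groups, the log2 levels of the 5 actins correlated with Pearson coefficients of 0.882 (Actb and Actg1) to 0.988 (Acta2 and Actg2), a description that mostly restates the group means. Among 11773 other genes that averaged 5 CPM or more in some group, those most like Acta2 were Scube3, Lmod1 and Ddah1 (r = 0.9978 to 0.9985). Lmod1, leiomodin, nucleates actin filaments in smooth muscle, and averaged 116 CPM in MIZ, 1.21 CPM in vehicle and 15.6 CPM in undifferentiated cells. Those most like Actg2 were Tpm2, a tropomyosin that lies along actin filaments, AC161119.1 and Siglecg (r = 0.997 to 0.9985). Those most like Acta1 were Emd, the nuclear envelope protein emerin, Tpm4 and Upf2 (r = 0.9969 to 0.9989). Zfp275, Gabrb1 and Dynll1 were nearest to Actb (r = 0.9962 to 0.9966), and Myom1, Pdgfa and Ankrd27 to Actg1 (r = 0.9939 to 0.9966). Exons of Tpm4, Scube3, AC161119.1, Gabrb1, Myom1 and Pdgfa share bases with a gene on the opposite strand, and the strand setting of the counting is not given in the sources used here.

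Genes for proteins that work with actin filaments in smooth muscle were also read. Their calls stand beside 35.9% of all genes called higher and 35.1% lower in MIZ than in vehicle. The shares were 33.7% and 33.3% in MIZ against undifferentiated cells, and 36.2% and 41.5% in vehicle against undifferentiated cells. Of 12 contractile partners, all tested, 11 were higher in MIZ than in vehicle, none lower, and their median on the log2 scale was 4.11, beside 0.02 over all genes tested. Cnn1, calponin, averaged 279 ± 40.3 CPM in MIZ and 1.58 ± 0.632 CPM in vehicle cells (SD, n = 3 each, log2 fold change 7.41). Myl9, the regulatory light chain of smooth muscle myosin, averaged 622 ± 79.5 CPM in MIZ and 4.28 ± 0.806 CPM in vehicle cells (log2 fold change 7.17), and Lmod1 had a log2 fold change of 6.54. The member that did not pass was Des, the intermediate filament protein desmin, with 8.46 CPM in MIZ and 8.93 CPM in vehicle cells (log2 fold change -0.10, edgeR adjusted p = 0.652). Without vehicle replicate 1 Des was called lower in MIZ (log2 fold change -0.29, edgeR adjusted p = 0.0349), so that 11 were higher and 1 lower. Against undifferentiated cells all 12 were higher in MIZ (median 1.94, with Smtn nearest the threshold at an edgeR adjusted p of 0.0459), and in vehicle 11 were lower and 1, Des, higher (median -2.53).

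Genes for proteins that bundle, anchor or coat filaments were higher in MIZ than in vehicle throughout the 2 lists read. In that comparison 35.9% of all genes were called higher and 35.1% lower. The shares were 33.7% and 33.3% in MIZ against undifferentiated cells, and 36.2% and 41.5% in vehicle against undifferentiated cells. All 12 cross-linkers and stress fibre proteins were higher in MIZ than in vehicle (median 2.42), among them Actn1, non-muscle α-actinin (1076 CPM in MIZ and 100.2 CPM in vehicle cells, log2 fold change 3.43), and Flnc, a filamin (log2 fold change 3.28). Of these 12, 11 were higher and 1, Palld, was lower in MIZ than in undifferentiated cells, and all 12 were lower in vehicle than in undifferentiated cells. All 4 tropomyosins were higher in MIZ than in vehicle, led by Tpm2 (log2 fold change 5.99) and Tpm1 (4.0), which are on both this list and the contractile list.

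Genes for proteins that handle actin monomers were read next. In MIZ against undifferentiated cells 33.7% of all genes were called higher and 33.3% lower. In vehicle against undifferentiated cells these shares were 36.2% and 41.5%. All 11 monomer-binding genes were higher in MIZ than in vehicle (median 1.25), with Cap2, cyclase-associated protein, at a log2 fold change of 3.04, Dstn, the depolymerizing factor destrin, at 2.54, and Tmsb10, a β-thymosin that sequesters monomers, at 2.10. Against undifferentiated cells 6 of the 11 were higher in MIZ and 1 lower (median 0.28), and 10 were lower and 1 higher in vehicle. Of 13 formins, which elongate filaments, 12 were higher in MIZ than in vehicle and none lower (median 1.12), with Fmn1 (2.54) and Inf2 (2.28) the largest among those that reached 5 CPM in a group and Fmn2, below that level, at 3.73. Of the 9 genes of the Arp2/3 complex, which branches filaments, 6 were higher and 1, Arpc5l, was lower (median 0.41). Of 9 tested capping and severing genes 6 were higher and 2, Gsn and Tmod3, were lower (median 0.76). Among all genes tested, 35.9% were called higher and 35.1% lower in this comparison. Lmod1, among the 6 higher, is also on the contractile list. Gsn averaged 1514 CPM in MIZ and 2175 CPM in vehicle cells, and the capping list summed to 2330 to 2426 CPM in MIZ and 2638 to 2807 CPM in vehicle libraries. Without vehicle replicate 1, Fmnl2 and Actr3 were also called higher, which made 13 of the formins and 7 of the Arp2/3 genes, and Tmod3 was no longer called, which left 1 capping gene lower. Between MIZ and undifferentiated cells the medians of the formin, Arp2/3 and capping lists were -0.12, -0.05 and -0.01, with calls in both directions.

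The SRF and MRTF genes, background to the CArG boxes above, were read in the same way, beside 35.9% of all genes called higher and 35.1% lower in MIZ than in vehicle. Of 8 tested factors and cofactors, 7 were higher in MIZ than in vehicle and none lower (median 1.22), with Fhl2, an SRF cofactor, averaging 97.8 CPM in MIZ and 7.02 CPM in vehicle cells (log2 fold change 3.79), and Phactr1, an actin monomer sensor, and Mrtfa at log2 fold changes of 2.06 and 1.74. Between MIZ and undifferentiated cells, where 33.7% of all genes were called higher and 33.3% lower, 3 of the 8 were higher and 4 lower (median -0.26). The 3 higher were Srf, the factor itself (61.0 CPM in MIZ and 29.7 CPM in undifferentiated cells, log2 fold change 1.04), Myocd, the muscle cofactor myocardin (2.66 CPM in MIZ and 0.740 CPM in undifferentiated cells, log2 fold change 1.84), and Fhl1, a LIM-domain protein (117 CPM in MIZ and 20.3 CPM in undifferentiated cells, log2 fold change 2.53). Fhl2 was lower in MIZ, at 97.8 CPM against 174 CPM in undifferentiated cells, and Mrtfa, at 80.6 CPM in MIZ and 84.1 CPM in undifferentiated cells, did not pass (log2 fold change -0.06, edgeR adjusted p = 0.26). Phactr1 was also lower in MIZ than in undifferentiated cells (log2 fold change -0.81, edgeR adjusted p = 0.00067). All 5 tested actins were higher in MIZ in that same comparison. Exons of Actn1, Tpm4, Fmn1, Cap2 and Mrtfa share bases with a gene on the opposite strand, and those of Arpc5l with Rpl35 on the opposite and Wdr38 on the same strand, so reads in the shared bases cannot be assigned to 1 gene with certainty.

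Lists of genes further from the filament were read last. In MIZ against undifferentiated cells 33.7% of all genes were called higher and 33.3% lower. In vehicle against undifferentiated cells these shares were 36.2% and 41.5%. Of 14 subunits of the CCT chaperonin and prefoldin, which fold new actin and tubulin, 10 were higher and 1 lower in MIZ than in vehicle (median 0.28), 13 were higher in MIZ than in undifferentiated cells (median 0.58), and 11 were higher and 1 lower in vehicle than in undifferentiated cells (median 0.34), the direction opposite to that of the actins themselves. Of 7 actin-modifying enzymes 2 were higher and 3 lower in MIZ than in vehicle (median -0.18), with Mical2, an actin oxidase, at a log2 fold change of 2.92, where 35.9% of all genes were called higher and 35.1% lower. Of 10 tested actin-related and actin-like genes, the relatives outside the conventional family, 4 were higher and 2 lower (median 0.10). Actr2 and Actr3 are on both this list and the Arp2/3 list. Without vehicle replicate 1 the counts were 11 higher and 1 lower for the chaperonin list, 2 higher and 4 lower for the modifying enzymes, and 5 higher and 3 lower for the actin-related genes.

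**Figure D5:**
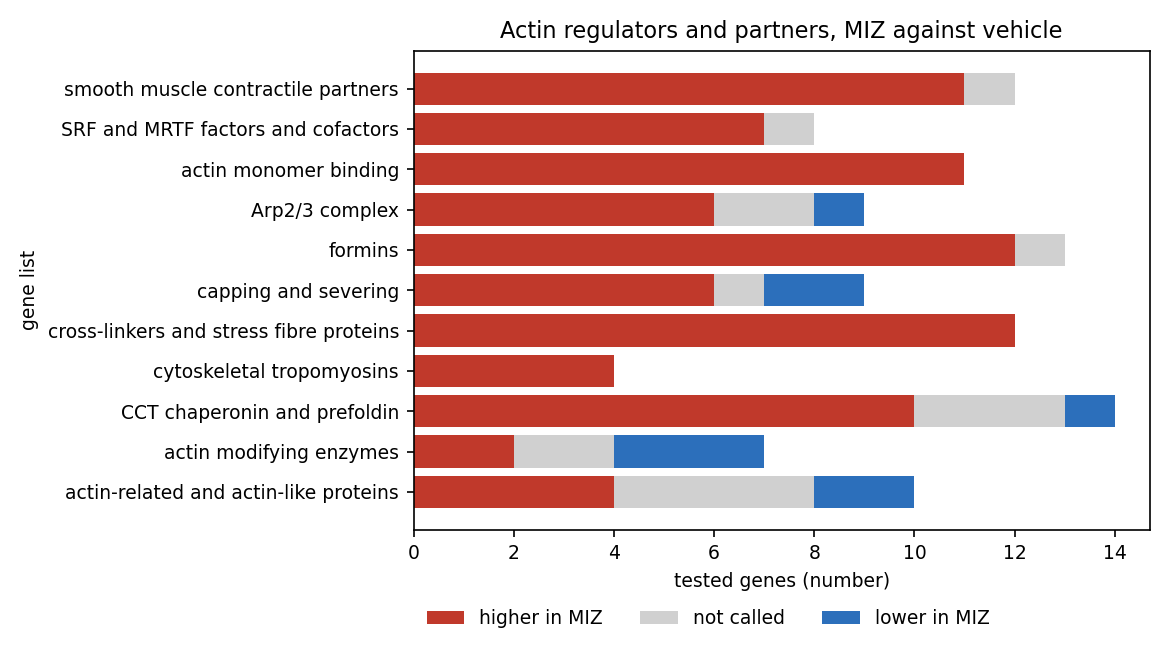
Number of tested genes called higher in MIZ (red), not called (grey) and called lower in MIZ (blue) against vehicle, for 11 lists of actin regulators and partners. Bars run from 4 to 14 genes, every tested gene of the monomer-binding, cross-linker and tropomyosin lists is higher, and the modifying enzymes have 3 lower against 2 higher.

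Markers of other cells that make muscle actins were read beside these results. The summed level of 6 vascular smooth muscle markers was 518 to 692 CPM in MIZ, 20.8 to 33.1 CPM in vehicle and 107 to 127 CPM in undifferentiated libraries. All 5 tested were higher in MIZ than in vehicle (Myh11, smooth muscle myosin heavy chain, at 153 CPM in MIZ and 8.80 CPM in vehicle cells), while Pln, phospholamban, was at 0 in MIZ and undifferentiated libraries, and Cnn1, Lmod1, Myh11 and Smtn are also on the contractile list. The 6 pericyte markers summed to 91.7 to 94.1 CPM in MIZ, 107 to 115 CPM in vehicle and 91.2 to 102 CPM in undifferentiated libraries, with Higd1b at 0 throughout. Of 5 tested, 2 were higher and 2 lower in MIZ than in vehicle, where 35.9% of all genes were called higher and 35.1% lower. Between MIZ and undifferentiated cells 1, Notch3 (78.7 and 50.2 CPM), was higher and 3 were lower, beside 33.7% and 33.3% of all genes. Among the 3 were Abcc9 (0.754 and 27.0 CPM) and Kcnj8 (0.141 and 8.53 CPM), so the sum hides opposite changes. Exons of Notch3 and Abcc9 share bases with a gene on the opposite strand. Of 6 myofibroblast markers, 5 were higher and 1 lower in MIZ than in vehicle, but 1 was higher and 4 were lower in MIZ than in undifferentiated cells, and their sum was 5358 to 5586 CPM in MIZ, 1464 to 1633 CPM in vehicle and 9184 to 9423 CPM in undifferentiated libraries. The part of such cells in the level of Acta2 and Actg2 was not tested.

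Skeletal and cardiac muscle markers were read beside Acta1 and Actc1. The 15 skeletal muscle markers summed to 11.0 to 16.7 CPM in MIZ, 6.09 to 9.0 CPM in vehicle and 12.2 to 13.5 CPM in undifferentiated libraries, and Myod1, Myog, Pax7 and Tnnc2 were at 0 in all MIZ libraries, where Acta1 was at 35.6 CPM or more. Of the 6 that could be tested, 2 were higher and none lower in MIZ than in vehicle: Neb, nebulin, at 4.94 CPM in MIZ and 0.823 CPM in vehicle cells, and Tnnt3, a fast skeletal troponin T, at 0.920 CPM in MIZ and 0.157 CPM in vehicle cells. Among all genes tested, 35.9% were called higher and 35.1% lower in that comparison. Without vehicle replicate 1 Ttn, titin, was called higher as well (log2 fold change 0.78, against 0.36 with it). The 7 cardiac markers summed to 0.916 to 1.55 CPM in MIZ, 0.322 to 0.638 CPM in vehicle and 1.55 to 2.42 CPM in undifferentiated libraries, 1 of 2 tested was higher in MIZ than in vehicle, and Myl7 was at 0 in all 3 groups. The part of muscle cells in the level of Acta1 was not tested.

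Markers of the remaining cell types of the fraction also differed between groups. Adipocyte markers ran opposite to the actins between MIZ and vehicle: all 7 tested were lower in MIZ (Fabp4 at 477 CPM in MIZ and 8901 CPM in vehicle cells, log2 fold change -4.22), and all 7 were higher in MIZ than in undifferentiated cells. The 7 preadipocyte markers summed to 992 to 1162 CPM in MIZ, 334 to 403 CPM in vehicle and 1110 to 1205 CPM in undifferentiated libraries. Of them 3 were higher and 1, Cd34, was lower (log2 fold change -1.02) in MIZ than in vehicle, where 35.9% of all genes were called higher and 35.1% lower. Pdgfrb, a receptor for platelet-derived growth factor that pericytes and smooth muscle cells also carry, had the largest change (log2 fold change 2.69). It averaged 522 CPM in MIZ, 81.0 CPM in vehicle and 376 CPM in undifferentiated cells. Pdgfra was also higher in MIZ than in vehicle (log2 fold change 1.25). Between MIZ and undifferentiated cells only Pdgfrb was higher and 5 were lower, beside 33.7% and 33.3% of all genes. Pdgfra (387 and 560 CPM) and Cd34 (0.681 and 9.08 CPM) were among the 5. All 7 preadipocyte markers were lower in vehicle than in undifferentiated cells, where 36.2% of all genes were called higher and 41.5% lower. Exons of Pdgfra and Cd34 share bases with a gene on the opposite strand. Immune markers summed to 430 to 599 CPM in MIZ, 265 to 446 CPM in vehicle and 1012 to 1138 CPM in undifferentiated libraries, with Cd3e at 0 throughout and 1 of 4 tested, Adgre1, called higher in MIZ than in vehicle. Without vehicle replicate 1 another, Cd68, was called lower there. Endothelial markers summed to 2.51 to 4.03 CPM in MIZ, 5.36 to 7.13 CPM in vehicle and 27.2 to 29.6 CPM in undifferentiated libraries, and none of 4 tested was higher and 2 were lower in MIZ than in vehicle. Mesothelial markers, which summed to 10.1 to 11.7 CPM in MIZ, 12.5 to 16.6 CPM in vehicle and 3.32 to 3.45 CPM in undifferentiated libraries, had 2 higher and 2 lower of 5 tested between MIZ and vehicle, and 1 higher without vehicle replicate 1, where Upk3b was no longer called. The part of any of these cells in the levels of the actins was not tested.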

How the data were processed

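RNA of primary mouse SVF cells was measured in 9 libraries, 3 each of MIZ, vehicle and undifferentiated cells, grouped by the treatment labels. By the labels and the study's methods, ribosomal RNA was removed, paired reads of 150 bases were sequenced, and the authors used Trim Galore 0.6.7 for trimming and STAR for alignment to mm10 (GRCm38). The authors deposited raw counts per gene, without normalization, in 1 table per library. Counting is credited to STAR in the methods but to HTSeq in the labels. The annotation release and strand setting are not given in the sources used here.

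A filter of 5 counts in 3 libraries left out 15112 genes. The rest were fitted in a single quasi-likelihood model of edgeR 4.0.16 (R 4.3.3) over the 9 libraries, with TMM factors and no replicate block, and called at an adjusted p under 0.05. Shares of each isoform in summed actin CPM, their sum and ratios within a library were compared by exact two-sided permutation tests. The study describes its samples as biological replicates, but no label ties a library to an animal or culture, so p-values measure only the spread between these samples, which may be technical. Depth was 28760721 to 55288455 counts per library, and precision was judged from the 3 libraries of a group.

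The 6 members and all gene lists were chosen with earlier results of these data known. Of each other list up to 3 genes are named, those with the largest change between MIZ and vehicle that passed the test and reached 5 CPM in a group, or members that a count of 5 or fewer singles out, or whose level bears on a sentence, chosen after their values were seen. For each tested member the 3 genes with the highest Pearson correlation of log2 CPM (prior count 2) are named. Sequences are from GENCODE M21 and RefSeq, and coding sequences were aligned with mafft 7.526. Scripts were tested on simulated data. Alternatives were DESeq2 1.42.0, other normalizations and filters, a replicate block, fits of 6 libraries, fits without mitochondrially encoded or actin genes in the scaling, shares per kb and each library left out.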

Additional observations from a re-analysis of the deposited data

How the results depend on the processing

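All 5 tested actins kept their direction and their call in all 3 comparisons under each of the 20 alternatives, with log2 fold changes between MIZ and vehicle of 6.68 to 7.06 for Actg2, 6.54 to 6.90 for Acta2, 4.74 to 5.17 for Acta1, 1.25 to 1.45 for Actb and 1.08 to 1.29 for Actg1. DESeq2 called 11960 genes between MIZ and vehicle where edgeR called 12190. The genes named for the largest changes of their list between MIZ and vehicle also kept direction and call there. Des and Fhl1, which did not pass, did not keep their sign: with a library left out, Des ran between -0.29 (without vehicle replicate 1, where it passed) and 0.042 (without vehicle replicate 3) on the log2 scale and Fhl1 between -0.09 (without MIZ replicate 3) and 0.241, and Des was 0.043 with library totals alone. Scaling by library totals alone moved the median of all genes to 0.158 between MIZ and vehicle (0.023 with TMM) and to -0.254 between vehicle and undifferentiated cells (-0.076 with TMM), and with it the difference in summed actin level to 2.07 and -1.04 on the log2 scale. Upper quartile normalization gave -0.94 for the sum in vehicle against undifferentiated cells.

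Per kb of transcript, Actg2 gained weight as the shortest transcript: the difference in its share became 3.57 points between MIZ and vehicle, 3.18 between MIZ and undifferentiated cells and -0.393 between vehicle and undifferentiated cells, and that of Acta1 became 0.518 and 0.497 points in the first and second of these. With a library left out, the muscle share differed by 34.5 to 36.8 points between MIZ and vehicle. The share of Actb between vehicle and undifferentiated cells, whose libraries overlap, ran between -2.09 and 0.976.

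Samples with the same replicate number did not deviate together (correlations of -0.0447 to 0.063), so the numbers were not taken as pairs. With the replicate block, 12020, 11281 and 13162 genes were called for MIZ against vehicle, MIZ against undifferentiated and vehicle against undifferentiated, where 12190, 11505 and 13339 were called without it, and the 5 actins stayed called. Counts of pseudogenes could not be added to their parent genes because the tables used here hold no rows for them. Without vehicle replicate 1, a choice made after seeing the data, the calls of other listed genes that changed were those of Arpc4, Diaph1, Fmnl2, Fmn1, Tmsb4x, Pfdn5 and Tnnt2 between MIZ and undifferentiated cells, and of Tmod3, Actr8, Casq2 and Adgre1 between vehicle and undifferentiated cells, and Naa80 and Actr8 became lower in MIZ than in vehicle. Depth limits Actc1, and Acta1 and Actg2 in vehicle cells.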
